A study of Homo sapiens with 6 samples.

Results

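The replication-dependent histone genes were followed in TC28a2 cells, an immortalized human chondrocyte line, treated with mocetinostat, an inhibitor of class I histone deacetylases, or with its solvent. They were taken by name, as every gene in the count table whose symbol starts with HIST1H, HIST2H, HIST3H, or HIST4H, which gave 89 of the 60623 genes listed. By class these were 8 H1, 23 H2A, 25 H2B, 17 H3, and 16 H4 genes, and by cluster 68 HIST1, 16 HIST2, 4 HIST3, and 1 HIST4 genes. GENCODE release 44 held 85 of them by identifier, 69 as protein-coding genes and 16 as pseudogenes. Classes were read from the older names, so the pseudogene HIST1H1PS2, now named H3P26, counts as H1, with 2 counts over the 6 samples. Both groups were the same cell line, with DMSO and no mocetinostat in one and 2 μM mocetinostat in the other for 24 hours, and each had 3 samples. The question was which histone mRNAs changed with the inhibitor, and whether the classes and clusters moved alike.

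Histone mRNAs of this kind are made mainly in S phase, when new DNA has to be packed into nucleosomes. H3 with H4 and H2A with H2B form the core of the nucleosome, and H1 binds the linker DNA outside it. Most of these mRNAs lack introns and a poly(A) tail, and end in a conserved stem-loop that is bound by the stem-loop binding protein SLBP, which acts in processing, export, translation, and timely decay. Their genes lie together in a large HIST1 cluster and in smaller clusters, and several H2A and H2B genes stand head to head and share the DNA between their starts.

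The stem-loop was searched for because it marks the mRNAs of this family and could be set beside their change. The 16 letters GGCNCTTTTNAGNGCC were looked for on the transcribed strand in the 150 bases after the stop codon, in GRCh38 with GENCODE release 44, and were found in 65 of 69 protein-coding members, 22 to 62 bases after the stop. A few sites are shown with 5 bases at each side, written 5′ to 3′ as DNA with the stem-loop letters in capitals, for genes whose changes lie far apart.
HIST1H1B, chr6:27866792-27866817, minus strand: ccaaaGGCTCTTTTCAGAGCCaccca
HIST1H2BC, chr6:26123467-26123492, minus strand: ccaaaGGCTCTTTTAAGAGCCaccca
HIST3H2A, chr1:228457364-228457389, minus strand: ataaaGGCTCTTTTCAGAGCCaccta
HIST2H3PS2, chr1:143905508-143905533, minus strand: ctaaaGGCTCTTTTCAGAGCCactgc
HIST1H4A, chr6:26022025-26022050, plus strand: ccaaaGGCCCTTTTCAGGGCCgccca
HIST4H4, chr12:14770719-14770744, minus strand: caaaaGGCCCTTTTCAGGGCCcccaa
The letters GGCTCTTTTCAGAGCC were found in 39 members, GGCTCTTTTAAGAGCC in 10, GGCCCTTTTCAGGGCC in 10, and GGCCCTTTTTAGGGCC in 4. Both forms that start with GGCCC belonged to H4 genes alone, and all 14 H4 genes with a match had one of them. HIST1H2AG and HIST2H2AC each had a form of their own. HIST1H1B and HIST3H2A carried the same 16 letters, and so did HIST1H4A and HIST4H4.

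Libraries were made from total RNA and depleted of ribosomal RNA, so that mRNAs without a poly(A) tail could be read. Totals ranged from 4873426 to 11031132 counts with DMSO and from 1619344 to 5089542 with mocetinostat, and 3 counts, taken here as the lowest measurable level, correspond to 0.271 to 1.86 CPM depending on the sample. CPM are counts per 1000000 counts of the library, with library sizes adjusted by edgeR's TMM factors. Of the 9 chondrocyte markers checked, 7 had enough reads to be tested, among them SOX9. The summed level of the 9 was 115 to 141 CPM with DMSO and 254 to 296 CPM with mocetinostat, mostly from SOX9. The cartilage collagen gene COL2A1 had few reads with DMSO, with counts of 26, 7, and 19 with DMSO and 185, 35, and 67 with mocetinostat. The 5 fibroblast markers summed to 4654 to 5627 CPM and 4307 to 4691 CPM, mostly from COL1A1, but went both ways. From DMSO to mocetinostat, mean levels went from 4544 to 3932 CPM for COL1A1 and from 528 to 208 CPM for COL3A1. Means were higher with mocetinostat for THY1 (168 to 282 CPM), PDGFRA (0.885 to 13.6 CPM), and COL1A2 (2.51 to 8.78 CPM). The 5 osteoblast markers summed to 55.7 to 67.5 CPM and 25.4 to 30.1 CPM, mostly from RUNX2, and the other 4 had too few reads to be tested. The part of these marker differences in the histone values was not tested.

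Histone mRNA was lower with mocetinostat in every class. All 89 genes together summed to 7528, 6842, and 7417 CPM with DMSO and 1729, 1895, and 1855 CPM with mocetinostat, so that the mocetinostat mean was 3.98 times lower, and no mocetinostat sample came near the lowest DMSO sample. Without scaling, histone genes held 0.674% to 0.754% of all counts with DMSO and 0.171% to 0.189% with mocetinostat. CPM are shares of the reads, and in bulk samples fewer cells in S phase and less histone mRNA per cell cannot be told apart.

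H2B had the largest decrease of the 5 class sums, from 1725 ± 128 CPM (SD, n = 3) to 384 ± 7.37 CPM, which is 4.50 times lower. H2A summed to 1732 ± 102 CPM with DMSO and 403 ± 36.2 CPM with mocetinostat, a log2 ratio of -2.10. H4 went from 592 ± 118 CPM to 151 ± 14.4 CPM, a log2 ratio of -1.97. The SD of H4 with DMSO came mainly from replicate 1, at 728 CPM against 519 and 528 CPM in the other DMSO samples. H3 went from 1241 ± 80.2 CPM to 333 ± 24.1 CPM, a log2 ratio of -1.90. H1 had the smallest decrease, from 1974 ± 141 CPM to 555 ± 9.24 CPM, which is 3.55 times lower. In each class the 3 DMSO samples lay above the 3 mocetinostat samples. No p was computed for sums, and the differences between classes in size of decrease were not tested.

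Divided by transcript length, the DMSO sums were 3508 CPM per kb for H2A, 3418 for H2B, 2551 for H1, 2501 for H3, and 1472 for H4. With mocetinostat the same sums were 819, 748, 723, 674, and 374 CPM per kb, so that H1 and H2B came close to each other while H4 stayed the lowest. The make-up of the histone reads moved a little. H1 held 27.2% ± 1.56% of all histone reads with DMSO and 30.4% ± 1.05% with mocetinostat, and the 3 mocetinostat values lay above the 3 DMSO values. H2B held 23.7% ± 1.08% and 21.0% ± 0.691%, with the mocetinostat values below the DMSO values. H3 held 17.1% ± 0.530% and 18.2% ± 0.523%, with the mocetinostat values just above the DMSO values. The shares of H2A and H4 overlapped between the conditions. The plot of summed levels shows these shifts as small beside the common decrease.

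**Figure D1:**
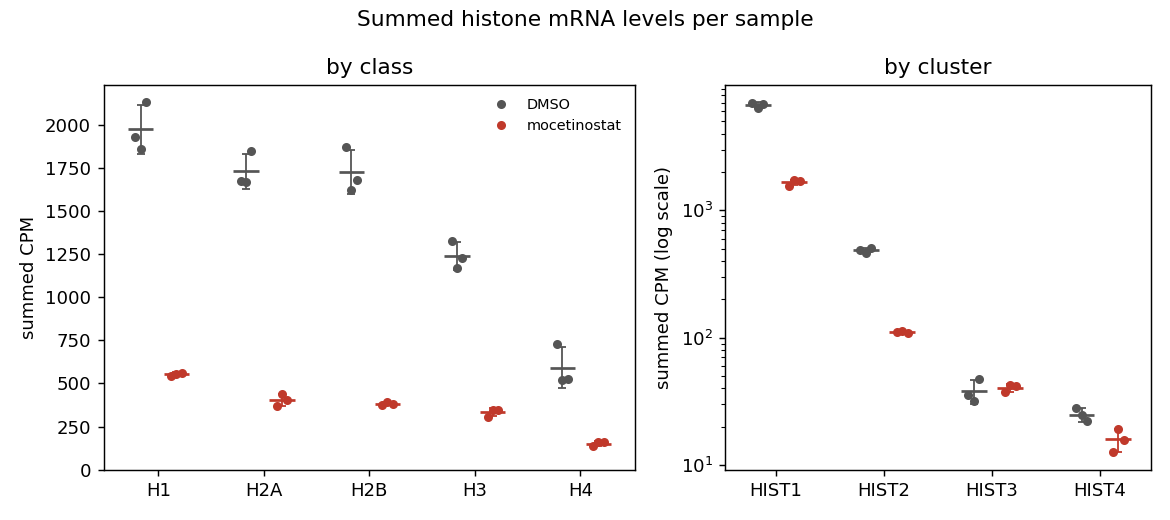
Summed CPM of the histone genes of each class (left, linear axis) and of each cluster (right, log axis) in the 3 DMSO and 3 mocetinostat samples; points are samples, and horizontal lines with bars are means with SD. The mocetinostat samples lie below the DMSO samples in all 5 classes and in HIST1, HIST2, and HIST4, and overlap them in HIST3.

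Gene by gene, 56 of the 89 genes had enough reads to be tested, 17 had reads but too few, with at most 33 in a sample, and 16 had no read in any sample. A gene was called at a Benjamini-Hochberg adjusted p under 0.05 in edgeR's quasi-likelihood test and a log2 fold change beyond 1 in either direction. By this rule 49 histone genes were called lower and 1 higher, whereas over all 13966 genes tested 8.18% were called lower and 20.2% higher. The called genes with lower levels ranged in log2 fold change from -3.22 to -1.24. The median log2 fold change was -2.07 over the 56 histone genes and -0.0021 over all genes tested. With adjusted p alone, 51 histone genes were lower and 1 higher, against 31.4% and 32.9% of all genes. The DMSO and mocetinostat samples did not overlap for 52 lower histone genes and 1 higher, against 32.8% and 33.7% of all genes.

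The size of the decrease depended on the scaling. GAPDH, a glycolytic enzyme often used as a reference, itself had a log2 fold change of -0.53, and scaling each library to it shifted the median of all genes by 0.53. The median of the histone genes was then -1.53, 44 of the 50 calls were kept, with HIST1H1E, HIST1H2BD, and HIST1H3I among those lost, and over all genes 6.03% of the calls were lower in place of 28.8%.

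**Figure D2:**
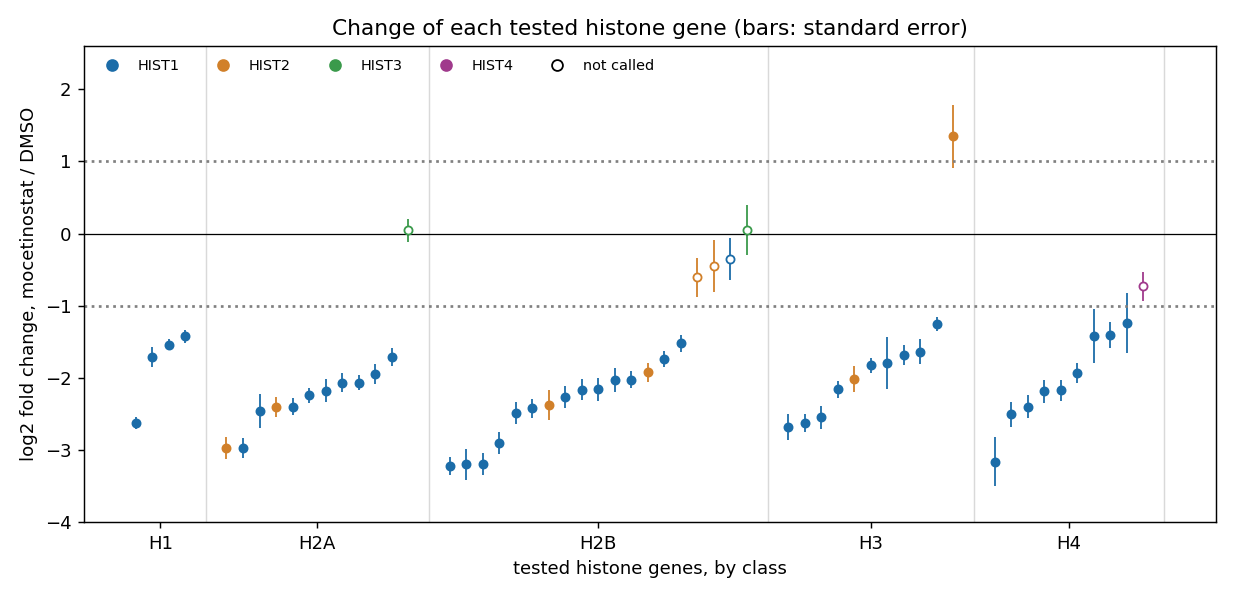
Log2 fold change (mocetinostat over DMSO) of the 56 tested histone genes, ordered within each class; bars are standard errors, colors are clusters, open circles are genes not called, and dotted lines mark log2 fold changes of -1 and 1. Genes called lower lie between -3.22 and -1.24 in every class, the HIST3 genes lie near 0, and 1 HIST2 gene, HIST2H3PS2, lies above 1.

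The 4 measurable H1 genes were all called lower, by unequal amounts. H1 proteins are the linker histones, and these genes encode somatic subtypes. HIST1H1B (H1.5, ENSG00000184357, chr6:27866792-27867588) measured 757, 716, and 786 CPM with DMSO and 126, 112, and 124 CPM with mocetinostat. This is 6.24 times lower, with a log2 fold change of -2.63 ± 0.08 (SE) and an adjusted p of 8.00e-41 in edgeR's quasi-likelihood test. HIST1H1E (H1.4) measured 517, 529.8, and 673 CPM with DMSO and 209, 206, and 225 CPM with mocetinostat, only 2.69 times lower (-1.43 ± 0.08, adjusted p = 6.89e-25). HIST1H1C (H1.2) fell from a mean of 538 to 186 CPM (-1.54 ± 0.08), and HIST1H1D (H1.3) from 108 to 34.1 CPM (-1.71 ± 0.13). No DMSO sample overlapped a mocetinostat sample in any of the 4.

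The order of the H1 genes differed between the conditions. With DMSO, HIST1H1B had the highest level per length of all histone genes, 945 CPM per kb, above HIST1H1C at 736 and HIST1H1E at 728. With mocetinostat it was the third H1 gene, at 151 CPM per kb, below HIST1H1E at 271 and HIST1H1C at 255. Of the H1 reads, HIST1H1B held 38.2% ± 1.20% with DMSO and 21.7% ± 1.50% with mocetinostat, and HIST1H1E held 28.9% ± 2.43% and 38.4% ± 1.48%. The ratio of HIST1H1B to HIST1H1E counts, which needs no scaling between samples, was 1.33 ± 0.150 with DMSO and 0.566 ± 0.0319 with mocetinostat. This pair and the other pairs given as ratios were chosen after their values were seen, so the ratios are descriptions.

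H2A and H2B pair as dimers in the nucleosome. Of 12 tested H2A genes, 11 were called lower. HIST1H2AJ, the most abundant, measured 265, 320.1, and 395 CPM with DMSO and 74.7, 78.7, and 81.2 CPM with mocetinostat (-2.07 ± 0.10, adjusted p = 1.24e-28), with the groups far apart. In HIST1H2AJ, however, 61.8% of the windows of 100 bases, the read length, also occur in HIST1H2AI, so the counts of these neighbors cannot be fully separated. HIST1H2AE, HIST1H2AL, and HIST1H2AG, which share no such window with another histone gene, had log2 fold changes of -2.24 ± 0.10, -2.40 ± 0.12, and -1.94 ± 0.14. In HIST1H2AG the mocetinostat samples spread from 28.3 CPM in replicate 1 to 65.7 CPM in replicate 2, all below the lowest DMSO sample at 156 CPM.

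In H2A, HIST2H2AB had the lowest fitted fold change and HIST3H2A the highest. HIST2H2AB (chr1:149887469-149887965) measured 116, 137, and 160.0 CPM with DMSO and 13.9, 22.3, and 19.9 CPM with mocetinostat, 7.36 times lower (-2.97 ± 0.15, adjusted p = 7.35e-29). Antisense exons of BOLA1 take in 15.3% of it. HIST1H2AB, picked after its values were seen, did not differ from it beyond the SE, at -2.96 ± 0.14 and 7.96 times lower. HIST3H2A (chr1:228434777-228457873) measured 28.0, 27.7, and 42.4 CPM with DMSO and 31.5, 33.5, and 36.9 CPM with mocetinostat, and was the only tested H2A gene not called (0.04 ± 0.16, adjusted p = 0.835). All 3 mocetinostat samples lay within the DMSO range. Its share of H2A reads was 1.88% ± 0.364% with DMSO and 8.45% ± 0.775% with mocetinostat, and its count relative to HIST2H2AC was 0.254 ± 0.0411 and 1.43 ± 0.413.

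H2B held most of the genes that were not called. Of 19 tested H2B genes, 15 were called lower. HIST1H2BC (chr6:26086317-26123926) measured 231, 203, and 228 CPM with DMSO and 22.0, 29.7, and 22.0 CPM with mocetinostat, 8.98 times lower (-3.22 ± 0.12, adjusted p = 7.95e-36). Antisense exons of HFE and of a further gene take in 30.9% of its exonic bases, and which of its reads belong to them is not known here. HIST1H2BL and HIST1H2BF, picked after their values were seen, did not differ from it beyond their SE, at -3.20 ± 0.21 and -3.19 ± 0.15, which is 9.45 and 9.31 times lower. The other abundant H2B genes had smaller decreases. HIST1H2BK measured 202, 200.1, and 207 CPM with DMSO and 62.1, 70.6, and 51.8 CPM with mocetinostat, 3.30 times lower (-1.74 ± 0.11, adjusted p = 2.87e-24), and HIST1H2BD and HIST1H2BJ had log2 fold changes of -1.52 ± 0.12 and -2.02 ± 0.12. HIST1H2BK held 11.8% ± 0.873% of H2B reads with DMSO and 16.0% ± 2.26% with mocetinostat, while HIST1H2BC went from 12.8% ± 0.675% to 6.39% ± 1.04%.

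The 4 H2B genes that were not called had 172 to 357 counts each over the 6 samples. HIST1H2BE, the only tested HIST1 gene without a call and outside the rule for named genes, had counts of 107, 45, and 60 with DMSO and 50, 7, and 13 with mocetinostat (-0.35 ± 0.29, adjusted p = 0.296). Antisense exons take in 28.2% of its exonic bases. HIST3H2BB measured 7.60, 4.16, and 5.31 CPM with DMSO and 5.55, 9.30, and 4.56 CPM with mocetinostat (0.05 ± 0.35, adjusted p = 0.909), with the groups overlapping. The pseudogenes HIST2H2BC and HIST2H2BD had -0.61 ± 0.27 and -0.45 ± 0.37 (the latter 0.087 with GAPDH scaling), with adjusted p of 0.0412 and 0.283. Both lie wholly inside exons of other genes on the same strand in GENCODE release 44 and share 77.3% and 94.4% of their 100-base windows with each other.

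H3 forms a tetramer with H4 at the center of the nucleosome. Of 11 tested H3 genes, 10 were called lower and 1 higher. HIST1H3C, the most abundant, measured 276, 281, and 309.6 CPM with DMSO and 67.2, 93.0, and 91.2 CPM with mocetinostat (-1.82 ± 0.10, adjusted p = 1.75e-26). HIST1H3B fell more, from 235 ± 42.2 to 39.5 ± 7.24 CPM (-2.63 ± 0.12), and HIST1H3I less, from 179.6 ± 12.9 to 74.3 ± 5.67 CPM (-1.25 ± 0.10). HIST1H3I made up 14.6% ± 1.85% of H3 reads with DMSO and 22.5% ± 3.47% with mocetinostat. HIST1H3G had a log2 fold change of -2.16 ± 0.12. HIST1H3J had the lowest in the class, -2.68 ± 0.18, and overlaps HIST1H2AM on the same strand over 40.3% of its exons.

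HIST2H3PS2 (chr1:143894544-143905977) was the histone gene called higher, from few reads. Its older symbol has the pseudogene tag PS, while GENCODE release 44 lists it as the protein-coding gene H3-7. It measured 1.63, 1.46, and 3.98 CPM with DMSO and 6.74, 4.34, and 6.22 CPM with mocetinostat (1.35 ± 0.43, adjusted p = 0.00527), which is 108 counts over the 6 samples. All 3 mocetinostat samples lay above the DMSO samples, but replicate 3 of DMSO was close to the lowest of them. The gene had enough reads to be tested only through its mocetinostat samples, the group where it was higher. The call was lost without mocetinostat replicate 1, with DESeq2, and when the fold change was tested against a minimum of 1, and the gene had too few reads to be tested after thinning or where each sample had to hold 10 counts or more. Its 3970 annotated exonic bases far exceed the 468 of its main transcript, and which of them the reads cover is not given by gene counts.

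Of 10 tested H4 genes, 9 were called lower and all 10 had an adjusted p under 0.05. HIST1H4E, the most abundant, measured 197, 129, and 124 CPM with DMSO and 27.4, 32.2, and 43.9 CPM with mocetinostat (-2.17 ± 0.14, adjusted p = 1.39e-22), with DMSO replicate 1 well above the other DMSO samples. HIST1H4C, HIST1H4D, and HIST1H4B had log2 fold changes of -1.94 ± 0.14, -2.40 ± 0.16, and -2.19 ± 0.15. HIST1H4A measured 24.2, 17.5, and 19.0 CPM with DMSO and 1.39, 6.82, and 0.829 CPM with mocetinostat, the lowest fitted fold change in the class (-3.16 ± 0.34, adjusted p = 4.07e-13). Replicate 2 with mocetinostat stood well above the other two, and all 3 lay below the lowest DMSO sample. Without that replicate the log2 fold change was -4.09. HIST1H4A had enough reads to be tested only through its DMSO samples, the group where it was higher. HIST1H4J and HIST1H4K, also called lower, share 90.7% and 91.3% of their 100-base windows with each other, so their counts cannot be fully separated.

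HIST4H4, the single gene of the HIST4 cluster on chromosome 12 (chr12:14767999-14771131), measured 28.0, 24.6, and 22.1 CPM with DMSO and 12.7, 19.2, and 15.7 CPM with mocetinostat. The groups did not overlap and the adjusted p was 0.00104, but the log2 fold change of -0.73 ± 0.20 did not reach the size needed for a call. It held 4.26% ± 0.445% of H4 reads with DMSO and 10.5% ± 1.44% with mocetinostat.

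By cluster, the HIST1 and HIST2 sums were lower with mocetinostat and the HIST3 sum was not. HIST1 summed to 6712 ± 343 CPM with DMSO and 1659 ± 80.1 CPM with mocetinostat, and 44 of its 45 tested genes were called lower, with a median log2 fold change of -2.16. HIST2 summed to 487 ± 24.5 CPM and 111 ± 2.41 CPM, 4.39 times lower. HIST2H2AC measured 128, 114, and 142 CPM with DMSO and 24.4, 30.4, and 19.5 CPM with mocetinostat (-2.40 ± 0.14). Its head-to-head neighbor HIST2H2BE measured 117, 106, and 98.7 CPM with DMSO and 28.9, 24.8, and 30.3 CPM with mocetinostat (-1.92 ± 0.13). In both, every mocetinostat sample lay far below the DMSO samples, and HIST2H2AB, HIST2H2BF (-2.38 ± 0.21), and HIST2H3D (-2.01 ± 0.18) were the other HIST2 genes called lower. HIST3 summed to 35.6, 31.9, and 47.7 CPM with DMSO and 37.3, 42.8, and 41.4 CPM with mocetinostat, and the mocetinostat samples lay within the DMSO range. Of all histone reads, HIST3 held 0.528% ± 0.101% with DMSO and 2.22% ± 0.0531% with mocetinostat, and HIST4 0.343% ± 0.0397% and 0.866% ± 0.141%. The differences between clusters were not tested.

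Within HIST1, the genes fall into 3 groups along chromosome 6 when split at gaps over 500000 bases. The first, at chr6:25723397-26322292, had 26 tested genes, of which 25 were called lower, and their median log2 fold change was -2.16. The second, at chr6:27125897-27147562, had 4 tested genes, all called lower, with a median of -1.84. The third, at chr6:27807075-27893891, had 15 tested genes, all called lower, with a median of -2.40. Genes with larger and smaller decreases lay side by side in the outer groups of the 3, as the plot of HIST1 in chromosomal order shows.

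**Figure D3:**
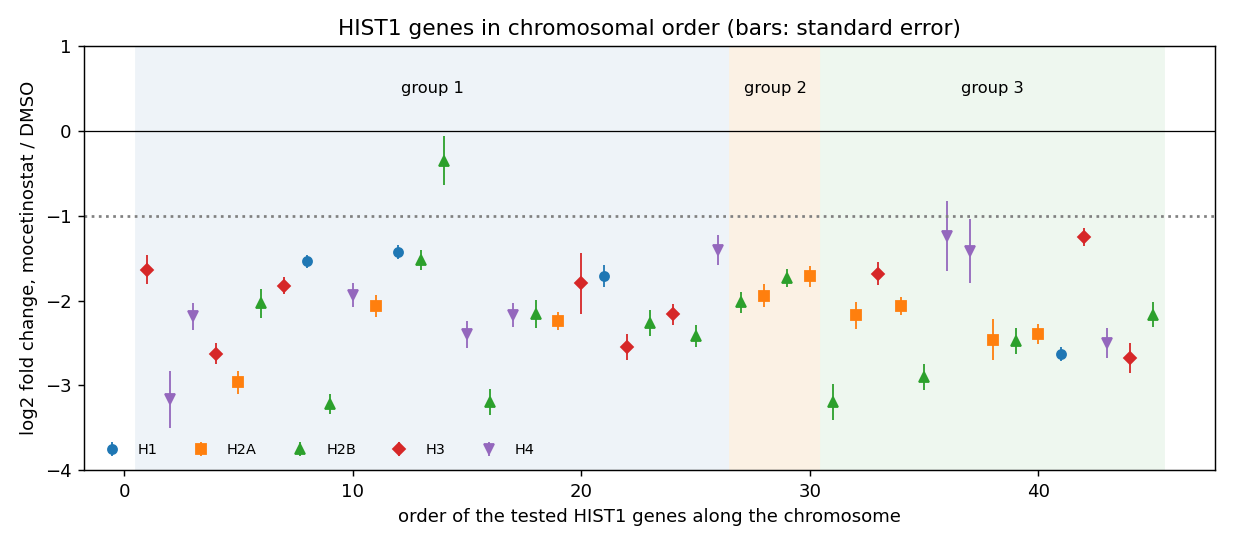
Log2 fold change (mocetinostat over DMSO) of the 45 tested HIST1 genes in their order along chromosome 6; bars are standard errors, symbols are classes, shading marks the 3 positional groups, and the dotted line marks a log2 fold change of -1. All genes but HIST1H2BE lie below -1, and neighbors often differ by more than their standard errors.

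Head-to-head neighbors share the DNA between their starts, which allowed a comparison of genes in the same surroundings. In all, 16 such pairs were found among the histone genes, with at most 500 bases between the outermost annotated starts of opposite genes. In 10 of them both genes were tested, and 9 of these joined an H2A to an H2B gene. The remaining pair, HIST1H3J with HIST1H2BO, rests on a longer annotated form of HIST1H3J, whose main transcript of 512 bases starts further away. This pair differed by 0.51 in log2 fold change and counts in the values that follow. Both genes were called lower in 9 of the 10 pairs and neither in the other one, HIST3H2A with HIST3H2BB. The absolute difference in log2 fold change within a pair had a median of 0.28 and ranged from 0.01 to 1.15. Differences within pairs were not tested. Some of the shared regions are shown as the plus strand of GRCh38, 5′ to 3′, for a pair that differed, a pair that fell alike, and the pair that was not called; capitals mark the octamer ATTTGCAT or its reverse complement ATGCAAAT.
HIST1H2BC with HIST1H2AC, chr6:26123927-26124144: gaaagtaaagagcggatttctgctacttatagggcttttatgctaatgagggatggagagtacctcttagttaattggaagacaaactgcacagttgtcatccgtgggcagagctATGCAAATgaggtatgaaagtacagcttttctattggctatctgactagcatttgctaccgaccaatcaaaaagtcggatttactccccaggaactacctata
HIST1H2BK with HIST1H2AH, chr6:27146856-27147105: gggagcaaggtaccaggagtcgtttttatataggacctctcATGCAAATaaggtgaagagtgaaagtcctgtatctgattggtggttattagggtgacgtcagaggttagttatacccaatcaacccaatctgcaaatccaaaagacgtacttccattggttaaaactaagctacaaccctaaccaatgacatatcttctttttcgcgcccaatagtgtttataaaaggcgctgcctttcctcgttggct
HIST3H2A with HIST3H2BB, chr1:228457874-228458102: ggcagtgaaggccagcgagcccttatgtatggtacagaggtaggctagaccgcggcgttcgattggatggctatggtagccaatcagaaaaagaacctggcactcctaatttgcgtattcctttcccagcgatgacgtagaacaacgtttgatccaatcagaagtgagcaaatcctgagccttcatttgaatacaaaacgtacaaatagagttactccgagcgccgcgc
HIST1H2BC (-3.22 ± 0.12) and HIST1H2AC (-2.07 ± 0.13) are 218 bases apart by their outermost annotated starts and had the largest difference. In RefSeq, HIST1H2AC starts just after chr6:26124171, so the region shown ends before that start. HIST1H2BK (-1.74 ± 0.11) and HIST1H2AH (-1.72 ± 0.12) are 250 bases apart and had nearly the same fold change. Both of these regions hold 1 octamer. The 229 bases between the HIST3 genes hold none, and neither do the regions between HIST1H2BL and HIST1H2AI (-3.20 and -2.18) and between HIST1H2AK and HIST1H2BN (-2.46 and -2.48), whose 4 genes were all called lower. HIST1H2AC, HIST1H2AH, HIST1H2AI, HIST1H2AK, and HIST1H2BN were named for their place in a pair, after their values were seen.

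The octamer is the binding sequence of POU2F1 and related factors and is known from H2B promoters. In RefSeq's promoters of GRCh38.p14, which run from 250 bases before to 50 after each start and matched 64 histone genes (for the 4 with several starts, the one nearest the start of the main transcript was used), ATTTGCAT was found on either strand in 11 of 14 H2A and 14 of 18 H2B promoters, but in 0 of 6 H1, 0 of 13 H3, and 0 of 13 H4 promoters. Over all 35116 promoters the share was 1.77%. The window of 250 bases can reach across the region between head-to-head neighbors, so a site can be counted for both genes. HIST2H2BE and HIST2H2AC, with 235 bases and 1 octamer between them, were both counted. The letters CCAAT were found in all 6 H1, 14 H2A, 18 H2B, and 13 H3 promoters and in 3 of 13 H4 promoters, against 34.6% of all promoters. TATAAA was found in 3 H1, 10 H2A, 12 H2B, 10 H3, and 7 H4 promoters, against 11.5% of all. All 3 motifs were searched on both strands and separately, so that matches may overlap.

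Of the tested H2A and H2B genes with the octamer, 20 of 21 were called lower, with a median log2 fold change of -2.24. Head-to-head neighbors that share an octamer both count among these genes. Of those without it, 5 of 7 were called lower, with a median of -2.18, and both genes of this set that were not called are the HIST3 pair. Stem-loop letters were found in 50 tested protein-coding genes, of which 45 were called lower (median -2.07), and not found in 4, all called lower (median -2.44).

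Some histone genes are known to give longer, polyadenylated mRNAs as well, and these were described as a list of 12. Of the 10 tested, 8 were called lower, with a median log2 fold change of -1.64, against 41 of 46 and -2.17 for the other tested genes. The list held HIST1H2BC (-3.22) as well as HIST3H2A and HIST4H4, which were not called. By annotated exonic length, 9 of 14 tested genes over 1000 bases were called lower and 1 higher (median -1.74), and 40 of 42 tested genes of up to 1000 bases were called lower (median -2.17). HIST1H2BE, HIST3H2A, HIST3H2BB, and HIST4H4, which were not called, and HIST2H3PS2 have from 1850 to 5002 annotated exonic bases, and the other two tested genes without a call are pseudogenes of under 1000. Within the H4 class, the count of HIST1H4H, a member of the polyadenylated list with 2163 annotated bases, 13.3% of them covered by an antisense gene, relative to HIST1H4E, with 412, was 0.323 ± 0.0226 with DMSO and 0.567 ± 0.0422 with mocetinostat. Gene counts do not separate the short from the long mRNA of a gene, so whether both forms changed alike was not tested.

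**Figure D4:**
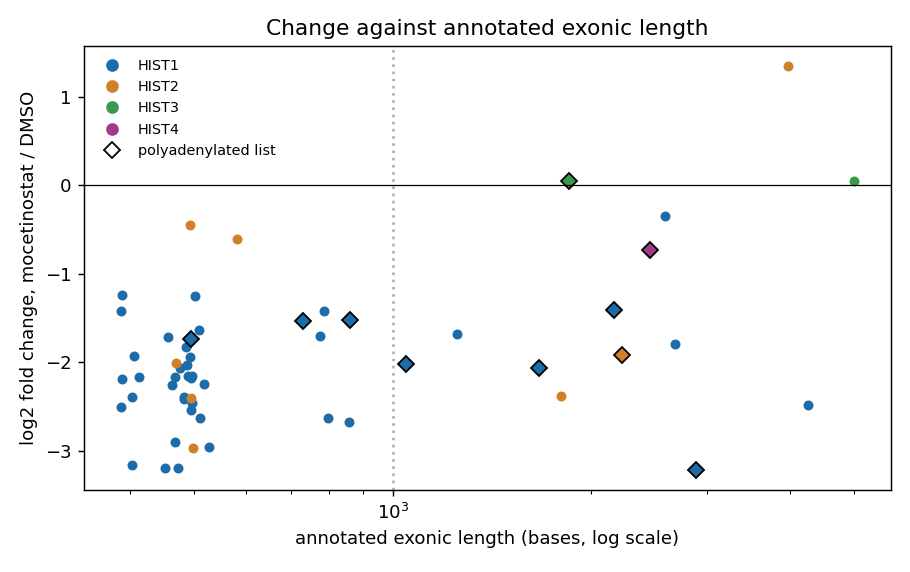
Log2 fold change (mocetinostat over DMSO) of the tested histone genes against their annotated exonic length in bases (log axis); colors are clusters, outlined diamonds are genes of the polyadenylated list, and the dotted vertical line marks 1000 bases. Genes of up to 1000 bases lie below -1 apart from 2 pseudogenes, while longer genes range from -3.22 to 1.35.

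The genes that could not be tested fall into a few kinds. Of 16 pseudogenes, 5 had no reads and 9 had too few. The 4 testis-restricted genes, HIST1H1T, HIST1H2AA, HIST1H2BA, and HIST3H3, had at most 7 counts in a sample. Of the protein-coding genes, 8 had no reads and 7 too few, and 4 genes were not matched to the annotation. Among those without reads, HIST2H3A, HIST2H3C, and HIST2H4B share 99.1% to 100% of their 100-base windows with another histone gene, and HIST1H3D and HIST1H2AD lie for 96.6% and 85.3% of their exons inside exons of ENSG00000282988 on the same strand. For such genes a count of 0 is no measure of expression if reads with more than 1 possible gene were left out, and the sources used here do not state this. HIST1H4F and HIST1H4G share no window with another histone gene and lie in no such overlap, and HIST1H2BA is the testis gene named above. In the sample with most counts, 0 reads allow a level of up to 0.271 CPM.

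Genes that make, process, and destroy histone mRNA were read from a list of 34, all tested, which also held 9 histone chaperone genes. Of the 34, 3 were called lower and 1 higher, against 8.18% and 20.2% of all genes tested, with a median log2 fold change of -0.16, and by adjusted p alone 15 were lower and 5 higher, against 31.4% and 32.9%.

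Of 9 genes for transcription and cell cycle drive, only CCNA2, which encodes the S and G2 phase cyclin A2, was called lower. It measured 216, 197, and 210.0 CPM with DMSO and 56.9, 53.9, and 51.8 CPM with mocetinostat (-1.93 ± 0.10, adjusted p = 7.43e-27), with the groups far apart. Its partner kinase gene CDK2 measured 103, 102, and 115 CPM with DMSO and 115, 154, and 97.4 CPM with mocetinostat (0.17 ± 0.11, adjusted p = 0.180), with the groups overlapping, and its sign turned without the filter on low counts. NPAT, the coactivator dedicated to histone genes, and CASP8AP2, which sits with it in the histone locus body, were not called (-0.12 ± 0.14 and -0.19 ± 0.12, adjusted p = 0.475 and 0.166). By adjusted p alone, CCNA2 was lower and CCNE1, a cyclin E gene, was higher (0.54 ± 0.16, adjusted p = 0.00185), and the other 7 were neither. NPAT, CASP8AP2, and CCNE1, and SLBP, LSM10, LSM11, ERI1, TUT7, and LSM1 after them, were picked after their values were seen.

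Of 11 genes for 3′ end formation, CPSF2, a subunit of the cleavage complex, was called lower, at 101, 70.8, and 81.9 CPM with DMSO and 35.1, 25.4, and 34.8 CPM with mocetinostat (-1.38 ± 0.14, adjusted p = 5.41e-14), with the groups apart. This call was lost with GAPDH scaling. Among the most abundant of this role, SRRT had -0.37 ± 0.09 (adjusted p = 5.48e-04) and the cap-binding NCBP1 -0.14 ± 0.09 (adjusted p = 0.182), and both turned to values above 0 when scaled to GAPDH. SLBP, which encodes the stem-loop binding protein, measured 124, 129.9, and 149 CPM with DMSO and 178, 145, and 165 CPM with mocetinostat (0.29 ± 0.10, adjusted p = 0.00594), with the groups overlapping. By adjusted p alone SLBP was the only 1 of the 11 that was higher, and 7 were lower, against 32.9% and 31.4% of all genes tested. Among the lower ones, LSM10 and LSM11 had -0.66 ± 0.22 and -0.85 ± 0.27. No gene of the 5 for mRNA decay was called. UPF1, a helicase needed for decay of histone mRNA, had -0.46 ± 0.09, the 5′ exonuclease gene XRN1 -0.69 ± 0.12, and LSM1 -0.87 ± 0.17. ERI1, the exonuclease that binds the stem-loop, had 0.66 ± 0.12 and TUT7, which adds uridines to histone mRNA ends, had 0.77 ± 0.13. All 5 had an adjusted p under 0.05. UPF1 was 0.070 with GAPDH scaling.

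Among 9 histone chaperone genes, ASF1B, which carries new H3 with H4, was called higher, at 39.4, 37.3, and 31.4 CPM with DMSO and 82.9, 93.0, and 92.8 CPM with mocetinostat (1.30 ± 0.13, adjusted p = 1.39e-14), with every mocetinostat sample above every DMSO sample. IPO4, an importin for histones, was called lower from counts of only 33, 21, and 17 with DMSO and 9, 2, and 1 with mocetinostat (-1.31 ± 0.56, adjusted p = 0.0364). The call was lost in 8 alternatives, and without mocetinostat replicate 1 the log2 fold change was -2.07. IPO4 had enough reads to be tested only through its DMSO samples, the group where it was higher. The abundant NASP had -0.42 ± 0.08 (adjusted p = 1.28e-05) and RBBP7 -0.01 ± 0.08 (adjusted p = 0.945), and both were above 0 with GAPDH scaling, RBBP7 also with RLE factors and with library size only.

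**Figure D5:**
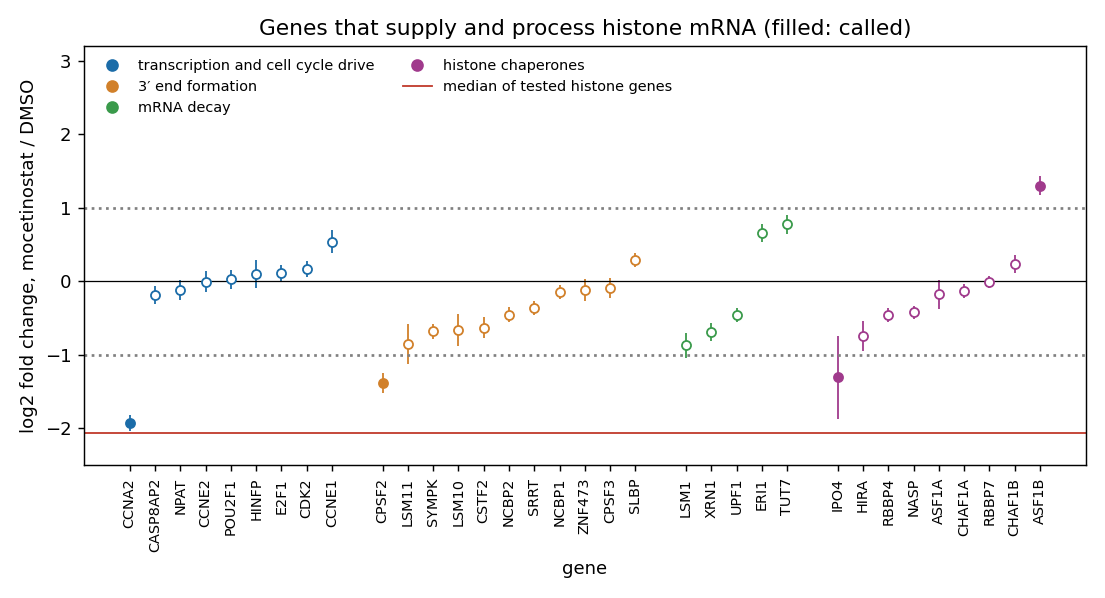
Log2 fold change (mocetinostat over DMSO) of the 34 genes for histone mRNA supply, processing, and decay and for histone chaperones, by role. Bars are standard errors, filled circles are called genes, and dotted lines mark -1 and 1. The red line is the median of the tested histone genes, -2.07. CCNA2 lies nearest to the histone median, and most genes lie between -1 and 1.

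Of 22 genes of the S-phase machinery, 1 was called lower, RRM1 (-1.36 ± 0.10), and none higher, with a median log2 fold change of -0.42 and a range from -1.36 to 0.73. Over all genes tested, 8.18% were called lower and 20.2% higher. By adjusted p alone, 18 of the 22 were lower and 1 higher, against 31.4% and 32.9% of all genes tested. Their summed level was 4210.5 to 4477 CPM with DMSO and 3157 to 3263 CPM with mocetinostat, a smaller decrease than that of the histone sum. Its part in the histone decrease was not tested.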

How the data were processed

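The authors treated TC28a2 cells with DMSO or mocetinostat, fragmented total RNA, made libraries, removed ribosomal sequences after PCR, and sequenced single reads. Per the paper's methods and the submitters' processing notes, they removed adapters and rRNA reads, aligned to GRCh38 with STAR (version 2.6.1d), and assigned reads to genes with featureCounts (version 1.6.4). The deposited values are raw counts per gene. Strand setting and treatment of reads with several targets are not given in the sources used here.

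Counts of 60623 genes were filtered with edgeR's filterByExpr (13966 kept), scaled by TMM, and tested with edgeR 4.0.16 (limma 3.58.1, R 4.3.3) by the quasi-likelihood test with treatment as the only term and Benjamini-Hochberg adjustment over all tested genes. The biological coefficient of variation was 9.30%. The SE is the absolute log2 fold change divided by the root of F. The paper gives the 3 samples per group as coming from 3 separate experiments, and p-values measure the spread between these samples. Replicates differed by more than sampling noise, with chi-square per degree of freedom from 1.96 to 7.19. CPM per kb uses the main transcript in GENCODE release 44, or exonic length where none is marked. Python 3.11.15, pandas 2.3.3, and matplotlib 3.10.9 were used. Limits cover counting error only, as reads carry no molecular identifiers.

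The histone genes and all gene lists were chosen with earlier results of these data known. Named histone genes are the 4 most abundant, the highest, and the lowest fold change per class and all tested HIST2, HIST3, and HIST4 genes; named supply genes are those called and the 2 most abundant per role. Alternatives were DESeq2 1.42.0, RLE factors, library size, GAPDH scaling, no filter, at least 10 counts in every sample, glmTreat, a replicate block, thinning to 1619344 counts, and leaving out each sample; those for the sum of all genes and the ratios were added after seeing the data. Simulated counts with known changes were used to test both fits.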

Additional observations from a re-analysis of the deposited data

How the results depend on the processing

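Over 62 results and 860 comparisons with an alternative setting, 801 kept their direction and their side of the threshold, or their size, 15 lost a call, 21 turned in sign, and 23 moved in size. The count of histone genes called lower, 49, was 43 with GAPDH scaling, 49 with the other scalings, and 42 to 50 over all settings. With the replicate number as a block 49 were lower and 1 higher, all 50 calls were kept, and the supply list had 2 called lower, because IPO4 lost its call. Same-numbered samples did not deviate together (correlations from -0.0162 to 0.0116), and no source used here ties a number to a shared experiment, so the samples were treated as unpaired, though a shared experiment is not excluded. The count of histone genes called higher was 0 with DESeq2, at least 10 counts in every sample, glmTreat, and thinning, and 0 to 1 when each sample was left out (0 without mocetinostat replicate 1). The count of supply genes called lower was 1 with GAPDH scaling and 5 with no filter, and called higher 4 with GAPDH scaling.

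GAPDH scaling moved the log2 ratio of the sums to -1.47 for all genes, -1.30 for H1, -1.58 for H2A, -1.64 for H2B, -1.37 for H3, -1.44 for H4, -1.49 for HIST1, -1.61 for HIST2, 0.60 for HIST3, and -0.13 for HIST4. Thinning gave -2.09 for H2B and -2.05 for HIST2, and leaving out the gene with the most counts gave -1.49 for H1, -2.07 for H2B, and -1.92 for HIST2. The HIST3 sum ranged from -0.042, without DMSO replicate 2, to 0.26 when each sample was left out. HIST3H2A was -0.21 with no filter and from -0.10 to 0.25 when a sample was left out, and HIST3H2BB -0.21 with no filter and from -0.21 to 0.33. Over all settings the highest values were 0.57 for HIST3H2A and 0.59 for HIST3H2BB. The lowest adjusted p of HIST3H2A over the edgeR and DESeq2 settings was 0.00367. HIST2H2BD was 0.087 with GAPDH scaling. CDK2 was -0.084 with no filter and from -0.018 (without mocetinostat replicate 2) to 0.29 when a sample was left out. With GAPDH scaling SRRT was 0.16, NCBP1 0.39, UPF1 0.070, NASP 0.11, and RBBP7 0.52; RBBP7 was 0.013 with RLE factors, 0.0095 with library size only, 0.072 with at least 10 counts in every sample, and 0.10 with thinning. The causes were not tested beyond the construction of each setting.

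With no filter the median of all genes was 0.25 and 39.8% of all calls were lower, and with glmTreat 18.4%, against 28.8% with the settings used. In the shallowest sample, 0 reads allow a level of up to 1.86 CPM.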
